A study of Mus musculus with 46 samples.

Results

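The comparison described here is recurrence after BLZ945 against 5 days of BLZ945 in microglia (MG) sorted from mouse gliomas. Its libraries were chosen by their titles alone, as every MG library of the recurrent BLZ945 stage (mice 67668 and 70696) and every MG library of the 5-day BLZ945 stage (mice 122, 123, 124 and 65975), with no irradiated mouse among them. That gave 2 recurrent and 4 5-day libraries, 6 of the 46 libraries of the series. BLZ945 is a small molecule that blocks signalling by the CSF1 receptor. The series holds MG and bone marrow-derived macrophages (BMDM) from each of 23 mice, taken from recurrent tumours after BLZ945, radiation (IR) or both, after 5 days of these treatments, and after vehicle, and asks how the 2 populations respond while tumours regress and after they progress again. The BMDM of the same 6 mice and the MG of 4 recurrent and 3 5-day IR+BLZ945 mice are used below to test where the MG change differs, and the 4 vehicle MG libraries serve as a level to read against.

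Every mouse, the vehicle mice included, was an nTVA Ink4a/Arf KO/KO animal whose glioma was started at 5 to 6 weeks of age by injecting DF1 cells, a chicken fibroblast line, that carried RCAS-PDGFB-HA into the right frontal cortex. In the nTVA line a receptor for the avian RCAS virus is carried under the nestin promoter, so that neural progenitors take up the growth factor gene PDGFB, and the tumours grow in hosts without the Ink4a/Arf tumour suppressors. The MG gate took myeloid cells positive for CD45 and CD11b and negative for Ly6C, Ly6G and CD49d, and the BMDM gate differed in taking CD49d+ cells. The day on which recurrent tumours were taken, the dose, and whether the drug was still being given at that time are not stated in the labels used here. Each library was 1 mouse, so the p-values below measure the spread between mice.

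Microglia are the resident macrophages of the brain, are seeded before birth, and depend on the CSF1 receptor and its ligands CSF1 and IL-34 for survival. In gliomas they and the macrophages that enter from blood take on states that help the tumour grow, and blocking the CSF1 receptor changes those states. In mice of this model, tumours that shrink under BLZ945 can grow back, and signalling through insulin-like growth factor 1 (IGF-1) and phosphoinositide 3-kinase has been linked to that regrowth.

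The 6 libraries held 9750322 to 12114594 counts each, so depth was alike in both groups, and 11230 to 12667 genes had at least 10 counts. The mean level of 22 microglia identity genes was 7.76 and 7.72 log2 CPM in recurrent MG and 8.47 to 8.86 in 5-day MG. Tmem119 lay at 11.30 and 9.99 in recurrent MG and at 8.91 to 10.01 in 5-day MG. It was one of only 6 of the 22 with an estimate above 0. Itga4, which encodes the CD49d antigen used to keep BMDM out, was low in both groups (1.23 and 1.72 in recurrent MG, 1.02 to 1.89 in 5-day MG). Cdkn2a, the gene of the deleted Ink4a and Arf proteins, had 35 counts in all in recurrent MG and 40 in 5-day MG. The groups differed in more than their stage. Mouse 67668 had Y-linked expression, while 70696 and every 5-day mouse expressed Xist. Mice 122, 123 and 124 have short numbers in the labels and the other 3 long ones. Library 65975 stood apart from the other 5-day libraries, with a chi-square per degree of freedom of 117 to 163 against each of them where they gave 25.3 to 32.7 among themselves. Lars2, a mitochondrial leucyl-tRNA synthetase gene, lay at 14.40 and 11.95 in recurrent MG against 7.59 to 7.93 in 5-day MG, and Malat1, a nuclear noncoding RNA, at 8.07 and 10.32 against 10.55 to 12.44. Scaled over all 46 libraries, Lars2 also divided the vehicle MG, at 12.12 and 13.87 in mice 41 and 78 and at 6.15 and 6.9 in 65966 and 65967. In recurrent MG after IR or IR+BLZ945 it lay at 11.63 to 15.22. The part of these differences in the results was not tested beyond the fits named below, in which 65975 or another library was left out or one of these measures entered as a term.

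Recurrent MG differed from 5-day MG in 1197 of the 14534 genes tested (8.24%), and most of these were higher at recurrence: 918 genes (6.32%) rose and 279 (1.92%) fell, by edgeR's quasi-likelihood test with a Benjamini-Hochberg adjusted p under 0.05. Most rises were of transcripts that 5-day MG hardly held. Every 5-day library was under 0 log2 CPM for 468 of the 918 genes, and 71 had no count in any of them, while 136 had a 5-day mean of 5 or more. Falls were of well expressed genes, with a 5-day mean of 5 or more for 233 of 279. These level classes were not counted over all genes tested. A gene near the floor at 5 days has little room to be called lower, so the classes partly follow from the test. The recurrent and 5-day libraries did not overlap for 883 of the 918 and for 266 of the 279. Among all genes tested both recurrent libraries lay above all 5-day libraries for 2566 (17.7%) and below them for 2376 (16.3%). Of the genes that rose, 631 were higher in 70696 than in 67668 (68.7%, against 55.5% of all genes). Read against vehicle MG, the recurrent mean lay above the highest vehicle library for 757 of the 918 and below the lowest for 221 of the 279. The same counts were not made over all genes tested. These genes were called from the same recurrent libraries, so the counts are no measure of a departure from vehicle. Bulk libraries cannot tell fewer cells of a type from less RNA per cell, nor a transcript of MG from one of another cell in the sort.

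The number of genes called rested on single libraries. It was 1649 without 5-day mouse 65975, 639 without 122, 709 without 124, 651 without recurrent mouse 67668 and 735 without 70696. MG libraries 65971, 65698 and 68344, of other groups but part of the same fit, are doubted for few detected genes or mismatched sex-linked genes, and without them it was 2383. With the MG libraries of long-numbered mice alone (2 recurrent against 1 5-day) no gene passed.

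The largest rises were of genes of oligodendrocyte precursors and of PDGF-driven glioma cells. Olig2, a transcription factor of the oligodendrocyte lineage (chromosome 16, 91225457 to 91228677, GRCm38), stood at 3.69 and 5.46 log2 CPM in recurrent MG and had no count in any 5-day library. It was at least 428-fold higher in recurrent MG, taking 3 counts over the 5-day group as the floor (adjusted p = 0.000145, edgeR). Pdgfra, the receptor through which PDGF drives these tumours (chromosome 5, 75152292 to 75198215), stood at 5.55 and 8.02 in recurrent MG and at -3.48, -0.73, -3.48 and -3.48 in 5-day MG, where -3.48 is the level of a library without a count. Both recurrent libraries were far above every 5-day one, with a log2 fold change of 10.20 ± 1.32 (SE, adjusted p = 0.000139). Lrrtm3 and Lrrn1, which encode neural leucine-rich repeat membrane proteins, were at least 213-fold and 198-fold higher and again without a 5-day count. The precursor list, chosen with earlier results of these data known, rose almost whole, so its count describes the list and is no independent support. Of its 13 members tested 11 rose and none fell, where 6.32% of all genes tested rose. The median log2 fold change was 7.05, or 6.49 with genes lacking a 5-day count set at their bound, beside -0.03 over all genes tested. Olig1 (8.08 ± 0.92, adjusted p = 0.000116), the partner of Olig2, and Sox10 (7.05 ± 1.00), a lineage factor, rose, as did Cspg5 (8.47 ± 1.01) and Bcan (5.36 ± 1.25), which encode proteoglycans. Nes (0.20 ± 0.72, adjusted p = 0.905), the nestin gene, and Cspg4 (2.91 ± 0.92, adjusted p = 0.0553), the NG2 proteoglycan gene, did not pass.

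The mean level of these 13 genes was 3.57 in 67668 and 5.21 in 70696, against -2.33, -1.23, -1.80 and -1.09 in 5-day MG (mice 122, 123, 124 and 65975) and -0.90 to 1.14 in vehicle MG. The 2 groups lay far apart on it, and the higher recurrent library was the one in which most of the called rises were higher. In BMDM of the same mice the list also separated the stages, at 1.95 and 2.55 in recurrent BMDM and -3.17 to -2.13 in 5-day BMDM. With the list's mean level as a term in the fit, a setting chosen after seeing the data, 2 genes passed. Since the level separates the groups fully, the term and the stage cannot be told apart in these libraries, and the part of these transcripts in the rises of this comparison was not tested otherwise.

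**Figure D1:**
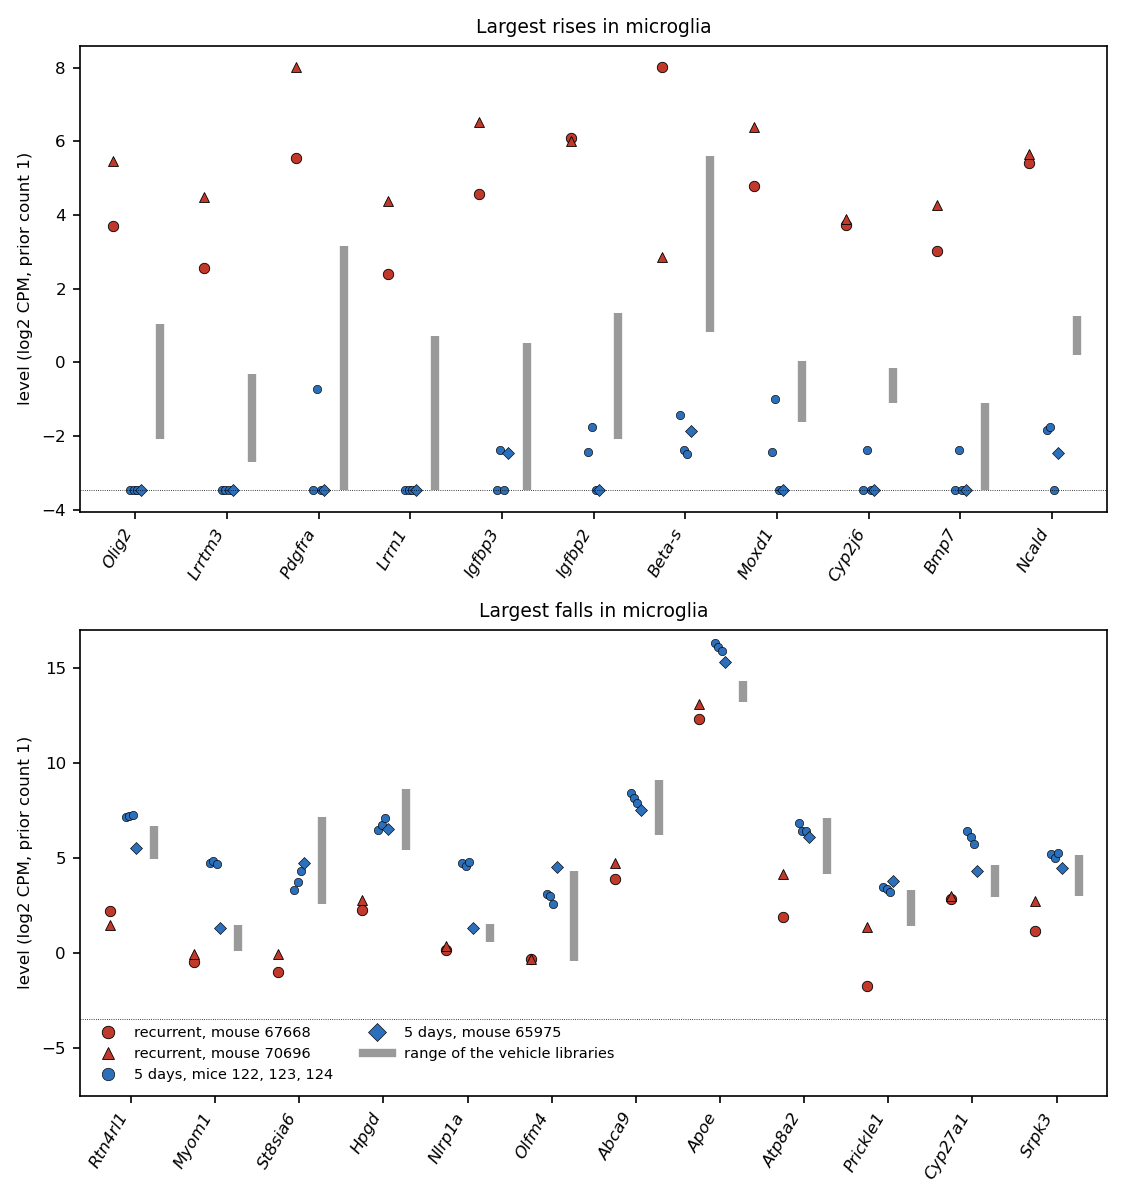
Levels (log2 CPM, prior count 1) of 11 of the 12 largest rises (top) and the 12 largest falls (bottom) among genes called in microglia: red points are the recurrent libraries, blue points the 5-day libraries and grey bars the range of the vehicle libraries, and the dotted line marks a library without a count. Both recurrent libraries lie above all 5-day libraries in the top panel and below them in the bottom panel, and mouse 65975 lies near the recurrent libraries for Myom1 and Nlrp1a.

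Binding proteins of insulin-like growth factors were among the largest rises, whereas the ligand and receptors did not pass. Igfbp3 (chromosome 11, 7206086 to 7213923) stood at 4.58 and 6.53 in recurrent MG and at -3.48, -2.38, -3.48 and -2.46 in 5-day MG, with 1380 counts against 2, a ratio of 1320 (95% counting interval 364 to 10900, adjusted p = 4.31e-05). Igfbp2 (chromosome 1, 72824503 to 72852474) stood at 6.10 and 6.00 in recurrent MG and between -3.48 and -1.76 in 5-day MG, a ratio of 933 (319 to 4530). Both genes were well expressed in each recurrent library and nearly absent from every 5-day one. Igfbp5 had a ratio of 159 (43.4 to 1330) and Igfbp7 one of 95.4 (25.7 to 799), and neither passed without 70696. Igf1 lay at 7.56 and 5.51 in recurrent MG and at 4.96, 7.17, 5.74 and 8.30 in 5-day MG, overlapping groups with a log2 fold change of -0.21 ± 0.83 (adjusted p = 0.913). Of the 20 genes of the IGF, IL-4 and PI3K list 4 rose and 1 fell (median 0.04), beside 6.32% and 1.92% of all genes tested. All 4 rises were of binding proteins. The gene that fell was Nfatc1 (-1.08 ± 0.29, adjusted p = 0.0244), a transcription factor activated by calcium signals, and it did not pass without 122, 124, 67668 or 70696 in turn. The 4 rises became 2 without 70696.

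Further rises came from secreted and enzyme genes. Bmp7, a bone morphogenetic protein, had 317 counts in recurrent MG and 1 in 5-day MG, a ratio of 605 (108 to 24000). Moxd1, a copper-dependent monooxygenase gene, rose by 8.74 ± 1.22 and Ncald, a neuronal calcium sensor, by 8.49 ± 1.04 (adjusted p = 0.000129). Cyp2j6, a cytochrome P450 gene, had a ratio of 594 (106 to 23500). The beta-globin gene Beta-s was uneven between the recurrent mice, at 8.03 and 2.87 in recurrent MG and -2.48 to -1.43 in 5-day MG, and it did not pass without 67668.

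Some markers of other brain cells rose beside the precursor genes, where 6.32% of all genes tested rose. Neuronal genes rose for 4 of 9 members tested (median 4.77), among them Tubb3, a neuronal tubulin (220 counts against 3, ratio 140, interval 47.3 to 684), and the synaptic gene Syn1 (5.42 ± 1.13, adjusted p = 0.00469). Astrocyte genes rose for 3 of 10: Clu (4.91 ± 1.27), S100b (3.93 ± 0.95) and the glutamate transporter Slc1a2 (3.49 ± 0.84). Endothelial genes rose for 3 of 9: the VEGF receptors Flt1 (2.53 ± 0.62) and Kdr (1.74 ± 0.46), and Ly6c1, which is also on the Ly6C-high monocyte list. Levels of these transcripts stayed low against those of the gate's own markers. Summed over its members the neuron list reached 4.90 and 5.87 log2 CPM in recurrent MG and 1.69 to 3.15 in 5-day MG, the endothelial list 6.06 and 6.33 against 4.09 to 5.08, and the astrocyte list 8.14 and 8.57 against 7.40 to 9.83, with overlap. Choroid plexus and ependymal genes rose for 2 of 8 and myelin genes for 1 of 7. No pericyte and fibroblast gene of 8, T and NK cell gene of 10, B cell gene of 5 or dendritic cell gene of 9 passed in either direction. The counts moved with single libraries: without 70696, 1 astrocyte, 1 endothelial and no choroid plexus gene rose, without 67668 or 124 1 endothelial gene rose, and without 123 or 65975 2 pericyte and fibroblast genes rose. With a term for short or long mouse numbers 2 neuronal, 1 astrocyte and no endothelial genes rose, and with one for Malat1 minus Lars2 1 neuronal, no astrocyte and 1 endothelial gene. The lineage genes Cd3d (8 counts in recurrent MG, 14 in 5-day MG), Cd8a (5 and 5) and Pax5 (0 and 1) lay under the filter on low counts. The part of these cells in the rises was not tested.

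**Figure D2:**
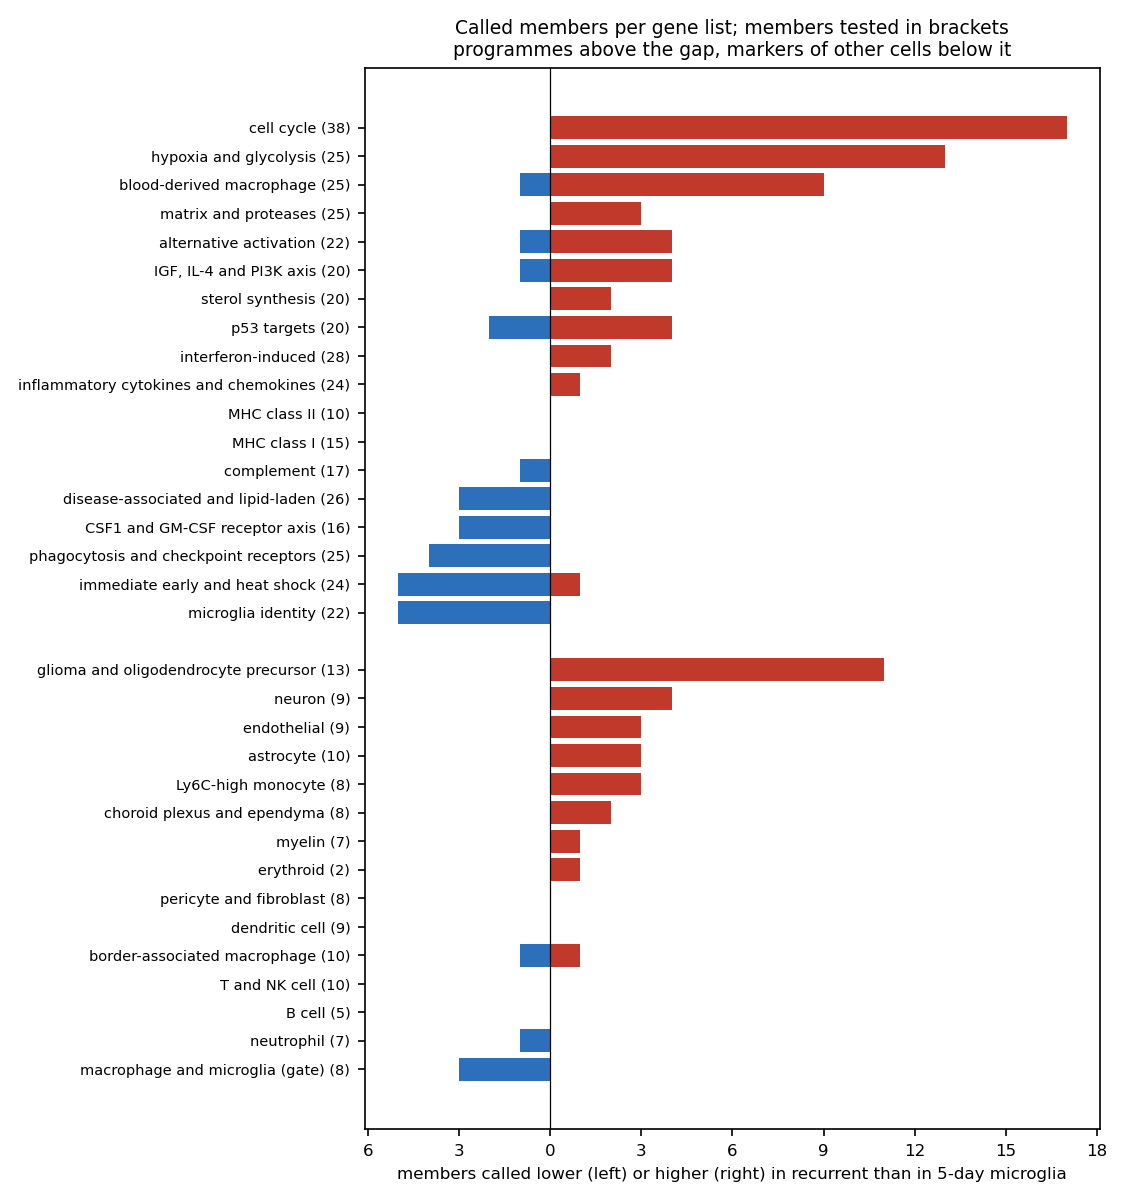
Number of members of each gene list called higher (red, to the right) or lower (blue, to the left) in recurrent than in 5-day microglia, with the number of members tested in brackets, programme lists at the top and marker lists at the bottom. The cell cycle (17), hypoxia and glycolysis (13) and glioma and oligodendrocyte precursor (11) lists hold the most rises, and the microglia identity and immediate early lists (5 each) the most falls.

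The receptor that BLZ945 blocks fell. Csf1r stood at 12.01 and 11.56 log2 CPM in recurrent MG and between 12.77 and 13.15 in 5-day MG. Both recurrent libraries were below every 5-day library and below the lowest vehicle library (12.09), with a log2 fold change of -1.20 ± 0.29 (adjusted p = 0.0136). The fall of Csf1r did not pass without 70696 or in a fit of only the 6 compared libraries. Nor did it pass with a term for short or long mouse numbers or for Malat1 minus Lars2. Beside 1.92% of all genes tested, 3 of the 16 genes of the CSF1 and GM-CSF receptor list fell and none rose (median -0.21). Among them was Csf3r (-1.48 ± 0.32, adjusted p = 0.00675), the G-CSF receptor gene. The ligand gene Csf1 overlapped between the groups (8.59 and 9.12 in recurrent MG, 7.47 to 8.72 in 5-day MG, adjusted p = 0.45). Il34, the other ligand, had 16 counts in recurrent MG and 6 in 5-day MG. Without 70696, 1 gene of the list fell and 1 rose.

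Genes that set microglia apart from other macrophages fell or did not pass, and none of 22 rose. The median of the list was -0.90 and 5 members fell, beside 1.92% of all genes tested. Rtn4rl1, a Nogo receptor family gene (chromosome 11, 75193783 to 75267769), fell most, at 2.20 and 1.49 in recurrent MG and 7.13, 7.20, 7.27 and 5.54 in 5-day MG (-5.08 ± 0.96, adjusted p = 0.0024). The recurrent libraries also lay under the lowest vehicle library (4.95). Cx3cr1, the fractalkine receptor, stood at 9.19 and 9.64 in recurrent MG and at 11.07, 10.93, 11.03 and 11.54 in 5-day MG (-1.73 ± 0.38, adjusted p = 0.00657), again without overlap. Gpr34 (-1.97 ± 0.46), a lysophosphatidylserine receptor gene, Mef2c (-1.77 ± 0.39), a transcription factor, and Trem2 (-1.44 ± 0.36, adjusted p = 0.0149), a lipid-sensing receptor, fell too. P2ry12, the purinergic receptor, did not pass although its groups did not overlap (8.52 and 8.70 against 9.42 to 9.97, adjusted p = 0.112). Tmem119 (1.00 ± 0.36, adjusted p = 0.0913) and Sall1 (-0.96 ± 0.44) did not pass either. Without 70696, 3 members of the list fell and 1 rose.

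Lipid and phagocytosis genes fell in part. Apoe, which encodes the main lipid carrier of the brain (chromosome 7, 19696109 to 19699188), was among the most abundant transcripts of 5-day MG, at 16.30, 16.10, 15.85 and 15.28 log2 CPM, against 12.31 and 13.07 in recurrent MG. It fell by 3.19 ± 0.80 (log2, adjusted p = 0.0161) to below the vehicle range of 13.18 to 14.31, and did not pass without either recurrent library. The cholesterol exporter Abca1 (-1.93 ± 0.35, adjusted p = 0.00184) and the pyrophosphate transporter Ank (-2.57 ± 0.80, adjusted p = 0.0494) were the other falls among 26 disease-associated and lipid genes, of which none rose. Spp1, which encodes osteopontin, spanned 4.90 to 13.64 in 5-day MG and lay at 12.60 and 9.96 in recurrent MG (adjusted p = 0.972). Of 25 phagocytosis and checkpoint receptor genes 4 fell and none rose, where 1.92% of all genes tested fell. The falls were of Mertk (-1.99 ± 0.55, adjusted p = 0.0281), a receptor for apoptotic cells, its ligand Pros1 (-1.31 ± 0.33), the CD47 receptor Sirpa (-1.34 ± 0.32) and the RNA sensor Tlr7 (-1.36 ± 0.36). None of these 4 passed without 67668, or without 70696, and 2 passed without 122. The 3 falls of the lipid list became 1 without either recurrent library, and 2 of its members rose without 65975. Of 20 sterol synthesis genes 2 rose, near the share of all genes that rose (6.32%): Sqle (2.20 ± 0.49, adjusted p = 0.00715) and Fdps (1.29 ± 0.33), both enzymes of cholesterol synthesis, and the count was 1 without 122, 123, 67668 or 70696 in turn, and 0 with a term for short or long mouse numbers.

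Other strong falls were of genes with different roles. Hpgd, the enzyme that inactivates prostaglandins (chromosome 8, 56294585 to 56321043), stood at 2.24 and 2.79 in recurrent MG and at 6.44, 6.70, 7.08 and 6.52 in 5-day MG (-4.18 ± 0.76, adjusted p = 0.00184). The 4 libraries of the 5-day group were close together and far above both recurrent ones, and the vehicle range was 5.41 to 8.61. The transporter genes Abca9 (-3.65 ± 0.65, adjusted p = 0.00149) and Atp8a2 (-3.05 ± 0.78), the sialyltransferase St8sia6 (-4.70 ± 1.26) and Cyp27a1 (-2.90 ± 0.78), a cholesterol hydroxylase, fell. Myom1 (-4.76 ± 1.06), a sarcomere gene, and Nlrp1a (-4.15 ± 0.96), an inflammasome sensor, were high in 3 of the 5-day mice only: both lay at 1.31 in 65975, within the vehicle ranges of 0.11 to 1.47 and 0.57 to 1.53.

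Of 38 cell cycle genes 17 rose and none fell, beside 6.32% and 1.92% of all genes tested. Their median log2 fold change was 2.04, and all 38 estimates were above 0. Ccnb1, which encodes cyclin B1 (chromosome 13, 100778650 to 100786570), stood at 5.89 and 6.34 in recurrent MG and at 2.01, 2.11, 3.55 and 3.98 in 5-day MG (2.98 ± 0.60, adjusted p = 0.00383). Both recurrent libraries lay above all 5-day ones and within the vehicle range of 4.44 to 7.08. Of the mitotic genes, the kinases Pbk (3.13 ± 0.67, adjusted p = 0.00533) and Aurka (2.05 ± 0.50), the ubiquitin-conjugating enzyme Ube2c (2.94 ± 0.72) and the kinesin Kif20a (2.28 ± 0.55, adjusted p = 0.0126) rose, and so did Cdk1 (1.60 ± 0.48, adjusted p = 0.0426), the kinase that cyclin B1 activates. Genes of DNA replication licensing did not pass: Mcm2 (0.22 ± 0.64), Mcm3 (0.12 ± 0.33), Mcm5 (0.51 ± 0.56) and Mcm6 (0.21 ± 0.49). Mki67, the proliferation marker, spanned 4.60 and 6.86 in recurrent MG and 1.44, 3.26, 4.30 and 4.78 in 5-day MG, groups that overlap (2.25 ± 0.73, adjusted p = 0.0613). The mean level of the list was 5.22 and 5.83 in recurrent MG, 2.60 to 4.46 in 5-day MG and 4.19 to 6.28 in vehicle MG. The count of 17 became 2 without 70696, 8 without 67668, 4 without 122 and 6 without 123, and it was 0 with a term for short or long mouse numbers and 1 with a term for Malat1 minus Lars2. The mean level of the precursor list also separated the 2 groups, as given above, and its part in these rises was not tested.

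Mitotic promoters often carry CCAAT boxes, bound by the factor NF-Y, and a cell cycle homology region, for which TTTGAA was searched. Promoter windows of RefSeq (GRCm38.p6), from 250 bases before to 50 after the annotated start, were found for 31 of the 38 list members (33 windows) and for 10336 of the 14534 genes tested (13208 windows). CCAAT on either strand was present in 81.8% of the list's windows against 37.5% of all windows, and TTTGAA in 45.5% against 12.3%. For the 17 members that rose, 11 with a window, the shares were 83.3% and 58.3% of 12 windows. Over all genes that rose the shares were 37.8% and 12.8%, and over those that fell 35.0% and 13.5%, close to those of all windows. A match describes letters in the window and no binding was measured. The windows of 3 members that rose are shown because each holds both motifs, given in capitals on whichever strand they read: Cdk1 (chr10:69352863-69353162, minus strand), Ube2c (chr2:164769679-164769978, plus strand) and Aurka (chr2:172370521-172370820, minus strand).
Cdk1: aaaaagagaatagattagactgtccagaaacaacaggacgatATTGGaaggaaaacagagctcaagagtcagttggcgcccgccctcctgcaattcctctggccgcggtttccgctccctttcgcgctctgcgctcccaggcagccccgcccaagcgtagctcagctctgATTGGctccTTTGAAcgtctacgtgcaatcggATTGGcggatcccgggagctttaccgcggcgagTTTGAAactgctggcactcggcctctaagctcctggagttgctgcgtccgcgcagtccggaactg
Ube2c: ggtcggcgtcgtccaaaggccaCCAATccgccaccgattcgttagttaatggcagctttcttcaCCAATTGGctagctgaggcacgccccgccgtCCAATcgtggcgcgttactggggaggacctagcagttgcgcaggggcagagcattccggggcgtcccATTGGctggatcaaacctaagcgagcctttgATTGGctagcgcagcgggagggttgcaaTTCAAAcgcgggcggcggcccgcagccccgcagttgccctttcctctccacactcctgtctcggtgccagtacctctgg
Aurka: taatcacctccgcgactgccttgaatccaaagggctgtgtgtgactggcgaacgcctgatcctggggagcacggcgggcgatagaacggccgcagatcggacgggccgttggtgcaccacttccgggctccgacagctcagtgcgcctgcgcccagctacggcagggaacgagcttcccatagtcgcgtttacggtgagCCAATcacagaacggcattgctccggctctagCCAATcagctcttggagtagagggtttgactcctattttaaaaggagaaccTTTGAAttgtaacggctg

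Of 25 genes of the low oxygen response and glycolysis 13 rose, none fell and 12 did not pass (median 1.46). Over all genes tested 6.32% rose and 1.92% fell. The mean level of the list was 7.25 and 7.69 in recurrent MG, 5.00 to 6.35 in 5-day MG and 5.22 to 7.0 in vehicle MG. Ndrg1, a hypoxia-induced gene (chromosome 15, 66929318 to 66969640), stood at 5.55 and 6.51 in recurrent MG and at -1.11, -0.50, -0.89 and 1.08 in 5-day MG (6.29 ± 0.94, adjusted p = 0.000359). Adm, which encodes the vasodilator adrenomedullin (chromosome 7, 110627661 to 110629820), stood at 4.81 and 6.98 in recurrent MG and at -2.45, -0.13, -0.02 and 1.36 in 5-day MG (6.15 ± 0.88, adjusted p = 0.000246). For both genes the recurrent libraries were well above every 5-day library, and 70696 was the higher. Other targets of hypoxia that rose were the collagen hydroxylase P4ha2 (4.24 ± 0.91), the endothelial growth factor Vegfa (3.06 ± 0.75, adjusted p = 0.0135), the oxidoreductase Ero1l (3.12 ± 0.78) and the mitophagy receptor Bnip3 (1.90 ± 0.53). Of the glycolytic enzymes, Pfkp (3.77 ± 0.67, adjusted p = 0.00156), Hk1 (1.73 ± 0.41), Ldha (1.67 ± 0.43), Aldoa (1.40 ± 0.39), Pkm2 (1.38 ± 0.40) and Gpi1 (1.33 ± 0.34) rose with the glucose transporter Slc2a1 (1.33 ± 0.39). Hk2 (0.02 ± 0.33), Pdk1 (-0.34 ± 0.24) and Car9 (-0.05 ± 0.80), which respond to low oxygen in many cells, did not pass. The count of 13 became 4 without 70696, 8 without 67668, 5 without 122, 7 without 123, 6 without 124 and 20 without 65975, the 5-day library with the highest mean level of the list. It was 5 with the term for mouse numbers and 3 with one for Malat1 minus Lars2.

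The hypoxia-inducible factors bind sites with the core ACGTG. It was present on either strand in 53.3% of the 30 promoter windows found for 22 list members, and in 53.3% of the 15 windows of the 10 members with a window that rose, against 24.5% of all windows. Among all genes that rose 21.7% of windows held it, and among those that fell 18.8%. Windows are shown for 3 members that rose, with the motif and its reverse complement in capitals: Ldha (the first of 2 windows, chr7:46845554-46845853, plus strand), Bnip3 (chr7:138909457-138909756, minus strand) and P4ha2 (chr11:54100674-54100973, plus strand). The Ldha window held 5 matches counted over both strands, since a palindromic CACGTG counts on each, and the other windows 2 each.
Ldha: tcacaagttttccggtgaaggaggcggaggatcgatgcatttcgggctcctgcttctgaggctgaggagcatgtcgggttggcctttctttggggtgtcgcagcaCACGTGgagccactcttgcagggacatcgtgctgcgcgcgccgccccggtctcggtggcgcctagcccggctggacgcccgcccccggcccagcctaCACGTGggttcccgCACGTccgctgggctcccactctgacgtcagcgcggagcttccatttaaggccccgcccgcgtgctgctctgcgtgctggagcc
Bnip3: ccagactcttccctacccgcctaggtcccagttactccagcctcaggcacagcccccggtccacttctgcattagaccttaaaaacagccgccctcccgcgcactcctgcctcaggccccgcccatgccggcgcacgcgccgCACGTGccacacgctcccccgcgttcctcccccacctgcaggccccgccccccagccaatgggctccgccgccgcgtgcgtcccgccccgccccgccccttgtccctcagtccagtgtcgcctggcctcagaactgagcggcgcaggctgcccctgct
P4ha2: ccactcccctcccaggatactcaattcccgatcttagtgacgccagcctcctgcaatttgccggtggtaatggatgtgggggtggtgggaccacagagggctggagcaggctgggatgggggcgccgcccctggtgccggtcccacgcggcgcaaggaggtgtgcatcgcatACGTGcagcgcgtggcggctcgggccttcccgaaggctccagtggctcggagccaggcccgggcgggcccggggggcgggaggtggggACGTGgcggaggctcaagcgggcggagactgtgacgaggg

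**Figure D3:**
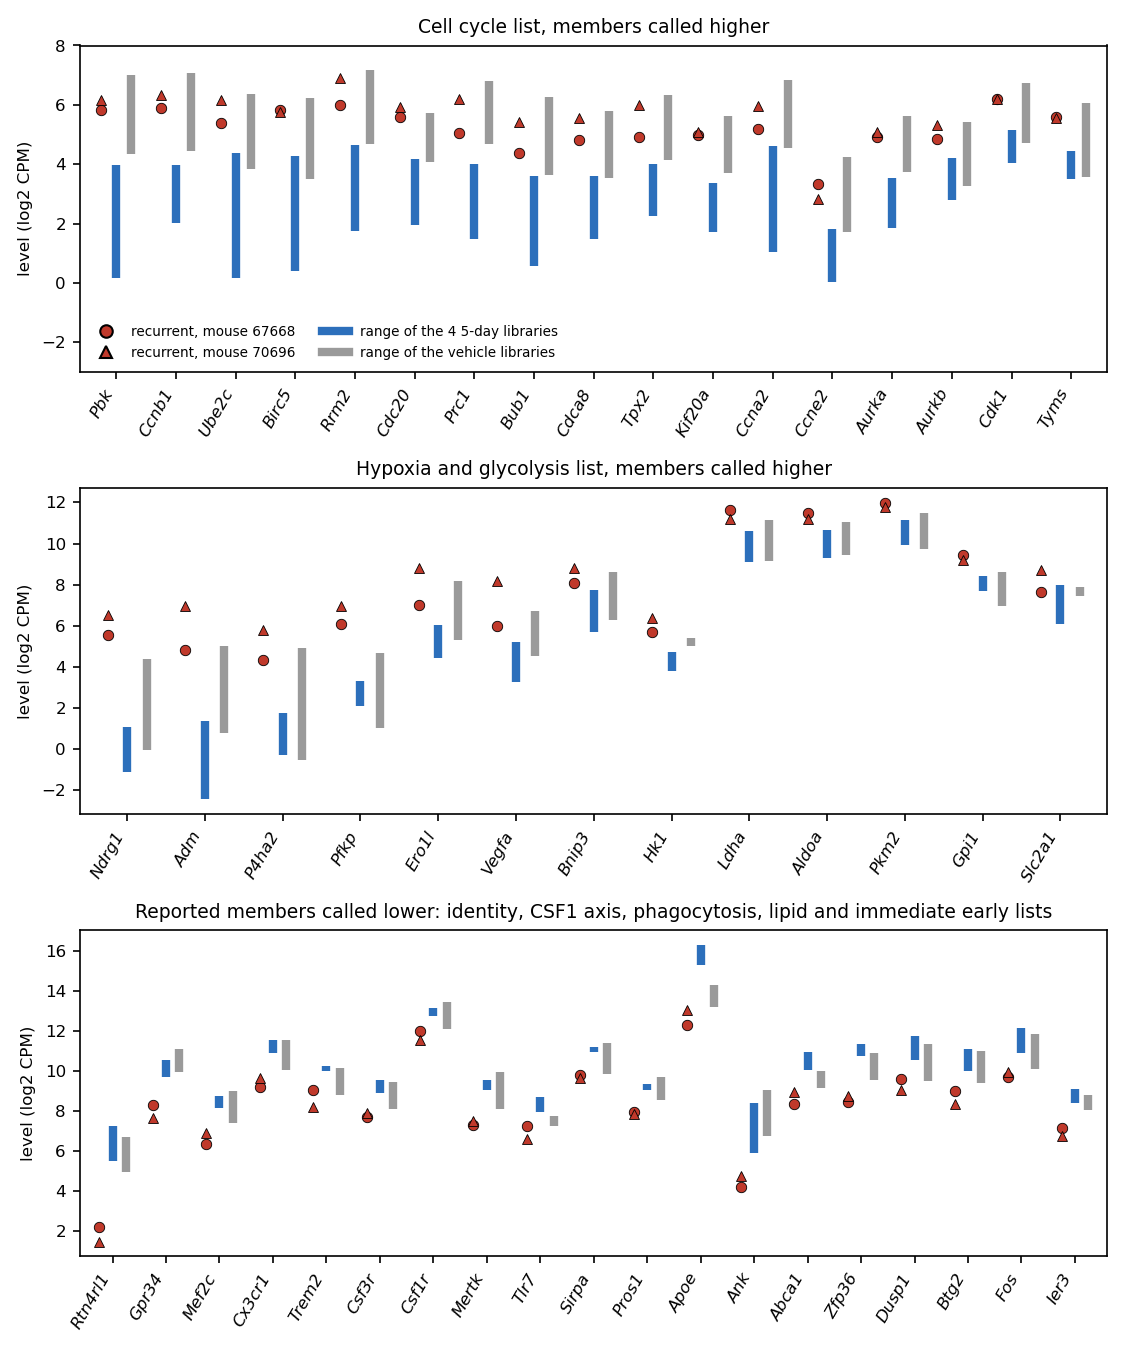
Levels (log2 CPM) of called members of the cell cycle list (top), the hypoxia and glycolysis list (middle) and of 5 lists with falls (bottom, the members reported here): red points are the recurrent libraries, blue bars the range of the 5-day libraries and grey bars the range of the vehicle libraries. In the top panel the recurrent libraries lie above the 5-day range and mostly inside the vehicle range, and in the bottom panel they lie below the 5-day range.

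Of 25 genes typical of macrophages from blood 9 rose and 1 fell in these CD49d- cells (median 2.88), beside 6.32% and 1.92% of all genes tested. With a term for Malat1 minus Lars2, which separates the groups, 1 rose, and with the term for mouse numbers 4 did. S100a10, a calcium-binding protein gene (chromosome 3, 93555080 to 93564643), stood at 4.99 and 4.50 in recurrent MG and at -0.25, -1.76, 0.61 and 0.88 in 5-day MG (4.68 ± 0.71, adjusted p = 0.000412). Plac8 (4.33 ± 0.90, adjusted p = 0.00457), a monocyte gene, Runx3 (4.06 ± 0.80), a transcription factor, and Vim (2.52 ± 0.61), the intermediate filament vimentin, rose without overlap between groups. Emilin2, a matrix glycoprotein gene, stood at 9.18 and 9.30 in recurrent MG and at 1.53, 2.27, 2.41 and 6.96 in 5-day MG, so that 65975 lay nearer the recurrent libraries than the other 3 did. Ccr2, a chemokine receptor of blood monocytes, overlapped (2.86 and 1.65 against 0.90 to 3.65, adjusted p = 0.999). Lyz2, the macrophage lysozyme, was the member that fell (-2.15 ± 0.59, adjusted p = 0.0257). The Ly6C-high monocyte markers rose for 3 of 8, with Ly6c1 of the endothelial list among them. Their summed level was 6.60 and 5.52 in recurrent MG against 1.89 to 5.04 in 5-day MG. Their part in these rises was not tested. The count of 9 became 16 without 65975, 15 without the doubted libraries and 5 without 122, 123, 124 or 67668 in turn, and the fall of Lyz2 did not pass without either recurrent library. The monocyte count was 1 without 123, 124 or 70696.

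Alternative activation genes rose for 4 of 22 and fell for 1 (median 0.89), beside 6.32% and 1.92% of all genes tested. The 2 recurrent mice differed in the genes of this list. Arg1, the arginine-degrading enzyme of tumour macrophages (chromosome 10, 24915221 to 24927484), stood at 12.87 in 67668 and 8.08 in 70696, against 1.62, 4.43, 0.84 and 4.54 in 5-day MG and -0.83 to 9.10 in vehicle MG (8.30 ± 1.69, adjusted p = 0.00408). Retnla had 105 counts in recurrent MG, 3.41 log2 CPM in 67668 and -2.0 in 70696, and none in 5-day MG, at least 66.8-fold higher. Ccl17, a chemokine gene, stood at 3.80 and -0.45 in recurrent MG and -3.48 to -1.11 in 5-day MG. All 3 were thus higher in 67668, unlike most rises. Hmox1, the heme oxygenase gene, was even between the recurrent mice (9.76 and 10.08, against 7.31 to 8.58 in 5-day MG). The scavenger receptor Stab1 fell (-1.47 ± 0.35, adjusted p = 0.0125), and the mannose receptor Mrc1 did not pass (-0.05 ± 0.85, adjusted p = 0.985). The 4 rises became 1 without 67668 and 7 without 65975, and Stab1 did not pass without either recurrent library. They were 2 with the term for mouse numbers and 0 with that for Malat1 minus Lars2. Of the matrix and protease list 3 of 25 rose, the metalloproteases Mmp12 (3.40 ± 0.86, adjusted p = 0.0166) and Mmp13 (4.54 ± 1.17) and the inhibitor Timp1 (113 counts against 3, ratio 71.9, interval 24.0 to 354). That count was 1 without 70696, 6 without 123, 5 without 65975, 1 with the term for mouse numbers and 0 with that for Malat1 minus Lars2.

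Shares of inflammatory and interferon-induced genes that rose were near or under the 6.32% of all genes tested, and no antigen presentation gene of the MHC lists passed. Of 24 inflammatory cytokine and chemokine genes Nos2, the inducible nitric oxide synthase, rose (4.45 and 5.19 in recurrent MG, -3.48 to -0.30 in 5-day MG, 6.99 ± 1.19, adjusted p = 0.00104), and Ccl2 did not pass (1.21 ± 0.66, adjusted p = 0.276). Of 28 interferon-induced genes Isg15 (1.86 ± 0.44, adjusted p = 0.0113) and Ifi44 (2.21 ± 0.62) rose, and neither passed without 70696. The MHC lists held 15 class I and 10 class II genes. Without 65975, 4 class I genes fell, 2 interferon-induced genes fell and 4 inflammatory genes rose. Cd74, the class II invariant chain, lay at 13.25 and 11.33 in recurrent MG and spanned 10.08 to 13.71 in 5-day MG.

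Of 24 immediate early and heat shock genes 5 fell and 1 rose, beside 1.92% and 6.32% of all genes tested. Their estimates were above 0 for 14, with a median of 0.06, and p53 targets moved both ways. Zfp36, which encodes an RNA-decay factor (chromosome 7, 28376784 to 28380253), stood at 8.44 and 8.77 in recurrent MG and at 10.88, 11.37, 10.74 and 10.82 in 5-day MG (-2.36 ± 0.40, adjusted p = 0.000895). The recurrent libraries lay far below both the 5-day and the vehicle range (9.56 to 10.91). Fos (-1.65 ± 0.38), Dusp1 (-1.84 ± 0.48), Ier3 (-1.65 ± 0.37) and Btg2 (-1.80 ± 0.38) fell as well, and the heat shock gene Hspa1b rose (3.46 ± 0.99, adjusted p = 0.0338). These 5 falls became 3 without 67668, 1 without 70696 and 2 with the Malat1 minus Lars2 term. Of 20 p53 targets 4 rose and 2 fell (median 0.18). Cdkn1a, the cell cycle inhibitor p21 (chromosome 17, 29090976 to 29100727), stood at 8.63 and 8.10 in recurrent MG and at 6.17, 7.34, 6.40 and 6.64 in 5-day MG (1.68 ± 0.39, adjusted p = 0.0106). Phlda3 (3.47 ± 0.49, adjusted p = 0.000241), an inhibitor of AKT, the receptor Eda2r (5.11 ± 1.04) and the kinase Plk2 (1.86 ± 0.44) rose. Sesn1 (-2.34 ± 0.54, adjusted p = 0.00958), a stress-response gene, fell together with Btg2, which is also a p53 target. No fall passed in this list without 70696, and with the Malat1 minus Lars2 term 2 rose and none fell.

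Because most rises were of genes near the floor, rises of genes with a 5-day mean of 5 or more were listed too, a choice made after their values were seen. Lars2 led them (5.83 ± 1.24, adjusted p = 0.00525). Tgm2, a transglutaminase, stood at 10.87 and 9.38 in recurrent MG and at 7.45, 7.15, 8.15 and 7.31 in 5-day MG (2.74 ± 0.41, adjusted p = 0.000362). Srgn, the proteoglycan serglycin, rose by 2.27 ± 0.44 (log2), the tubulin gene Tuba1a by 1.99 ± 0.43 and the lactate exporter Slc16a3 by 1.94 ± 0.51. The interferon-inducible genes Ifi27l2a (1.98 ± 0.54) and Ifitm3 (1.87 ± 0.52) and the ion transport regulator Fxyd5 (1.91 ± 0.56) also rose. Falls of such genes beyond those named above included Slco2b1, an organic anion transporter gene, at 7.54 and 7.43 in recurrent MG and 10.57, 10.38, 10.53 and 9.23 in 5-day MG (-2.78 ± 0.51, adjusted p = 0.00178), and the iron exporter Slc40a1 (-2.45 ± 0.52).

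The second question was whether MG and BMDM of the same mice changed alike between 5 days and recurrence. In 1 fit over all 46 libraries the 2 changes differed for 283 of 15901 genes (1.78%), with 101 (0.635%) more positive and 182 (1.14%) more negative in MG. That fit took the 2 libraries of a mouse as independent. With the mouse as a block 369 genes passed, 227 of them among the 283. The changes ran in opposite directions for the drug's receptor. Csf1r fell in MG (-1.18 ± 0.35, adjusted p = 0.0376, joint fit) and rose in BMDM (1.42 ± 0.32, adjusted p = 0.0034), a difference of -2.60 ± 0.48 (adjusted p = 0.00205). In BMDM it stood at 11.67 and 11.32 in recurrent mice and at 9.39, 10.16, 10.41 and 10.19 in 5-day mice, so that at recurrence its level in BMDM came within the range of recurrent MG or just under it. Stab1 (difference -3.53 ± 0.64, adjusted p = 0.00194) and Tlr7 (-3.30 ± 0.61, adjusted p = 0.0022) rose in BMDM by 2.06 ± 0.42 and 1.96 ± 0.40, with negative MG estimates that did not pass in the joint fit. Abca1 (-3.26 ± 0.67), Mertk (-3.38 ± 0.74), Sirpa (-2.15 ± 0.46), Cx3cr1 (-2.76 ± 0.66), Mef2c (-2.69 ± 0.68) and Apoe (-3.62 ± 0.94, adjusted p = 0.0345) fell in MG, and their BMDM estimates were above 0 without passing. P2ry12 rose in BMDM (1.90 ± 0.47, adjusted p = 0.00703) and its change differed from that in MG by -2.99 ± 0.71. Slco2b1 differed by -3.63 ± 0.71.

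Other genes rose in MG while their BMDM estimates did not pass. S100a10 differed by 6.17 ± 1.26 (adjusted p = 0.00597), and its BMDM levels of 6.71 and 3.90 at recurrence and 5.40 to 8.36 at 5 days overlapped. Plac8 differed by 5.96 ± 1.18 (adjusted p = 0.0047), Runx3 by 3.26 ± 0.90 and the glycolytic enzyme Pfkp by 4.47 ± 0.84 (adjusted p = 0.00296). Ccl17 differed by 8.47 ± 2.14, Clu by 6.31 ± 1.59 and Sqle by 3.09 ± 0.83. Lsp1, a leukocyte actin-binding protein, fell in BMDM (-2.77 ± 0.35, adjusted p = 2.81e-06) and not in MG (difference 3.58 ± 0.45, adjusted p = 6.14e-06), and the class II gene H2-DMb2 did likewise (difference 3.50 ± 0.70). Slc16a6, a monocarboxylate transporter gene, rose in BMDM (2.71 ± 0.29) and did not pass in MG (-0.23 ± 0.30), at 6.34 and 6.52 in recurrent BMDM against 3.27, 3.70, 3.48 and 4.26 in 5-day BMDM (difference -2.94 ± 0.44, adjusted p = 0.000209). Cspg4 rose in BMDM with a difference of -6.93 ± 1.76. Rapgef5, Slc7a4 and 1110021L09Rik had at most 1 count in any 5-day BMDM library, so their fitted differences give a direction and no size. The count of 283 became 62 without BMDM of 67668, 72 without MG of 67668, 84 without MG of 70696, 146 without BMDM of 70696, 429 without BMDM of 123, 544 without BMDM of 65975 and 540 without the doubted libraries, here with BMDM of 122, 124 and 65698 among them.

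**Figure D4:**
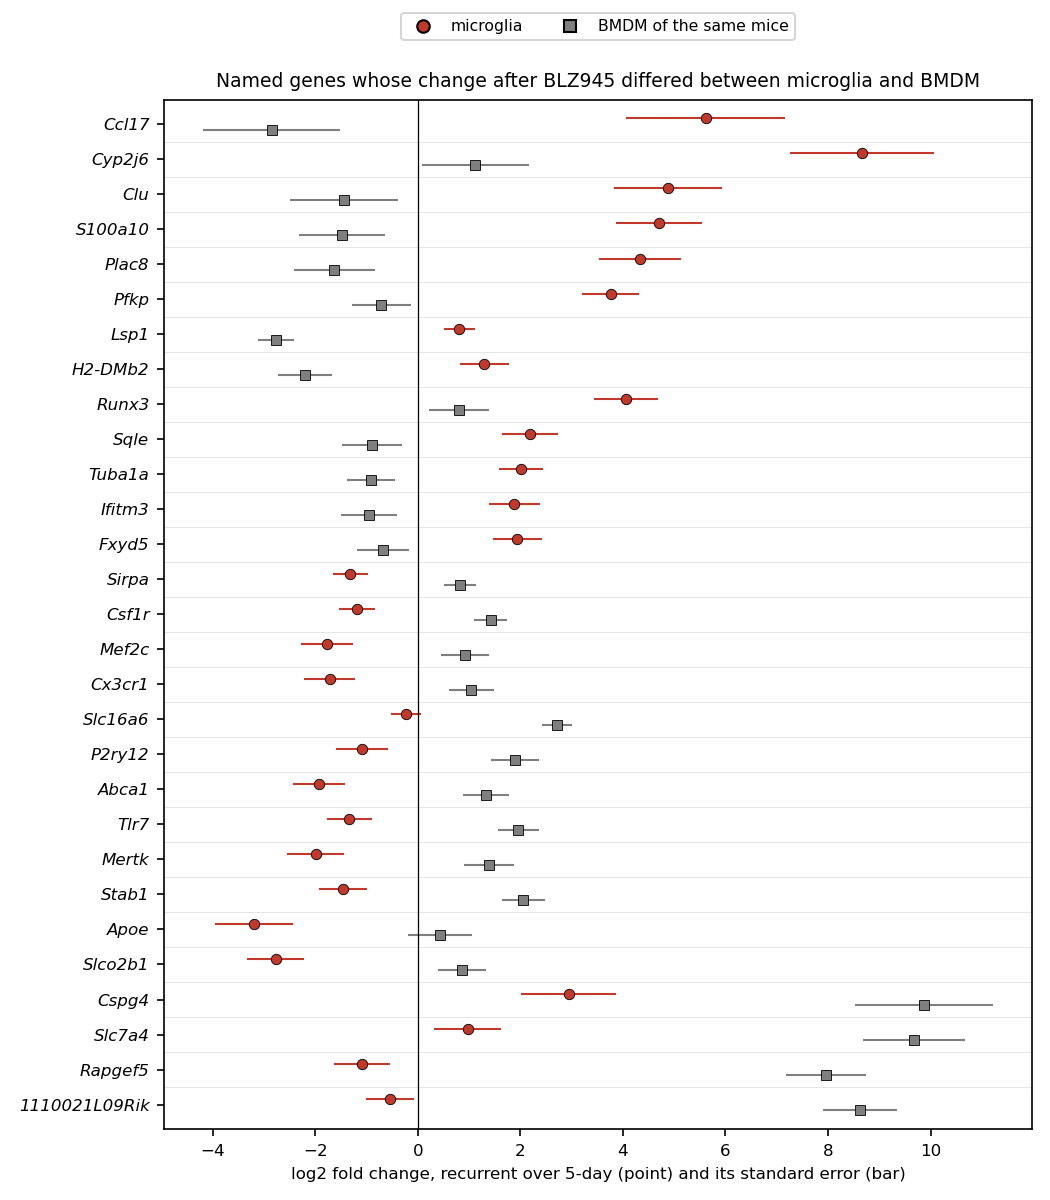
Log2 fold change (recurrent over 5-day, with its standard error) in microglia (red circles) and in BMDM of the same mice (grey squares) for the named genes whose difference passed, ordered by the difference. Csf1r, Sirpa, Cx3cr1, Mef2c, Abca1, Mertk and Stab1 lie left of 0 in microglia and right of 0 in BMDM, and fitted changes of Rapgef5, Slc7a4 and 1110021L09Rik in BMDM rest on 5-day groups near 0 counts.

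The third question was whether the MG change was the same when radiation had been given with BLZ945. The change differed for 267 of 14534 genes (1.84%), with 210 (1.44%) more positive and 57 (0.392%) more negative after BLZ945 alone. Of 38 cell cycle genes 6 differed, Ccnb1, Pbk, Aurka, Aurkb, Nek2 and Tk1, each with the more positive change after IR+BLZ945, and the other 32 did not pass this test. Ccnb1 rose by 8.46 ± 0.93 (log2) there, with 5-day levels of -3.48 to 0.09 and recurrent levels of 5.48 to 6.63, and the difference of the changes was -5.48 ± 1.16 (adjusted p = 0.0235). The recurrent levels after BLZ945 lay inside the IR+BLZ945 range, and the 5-day levels did not overlap. Pbk (-6.59 ± 1.39) and Aurka (-4.34 ± 0.85, adjusted p = 0.0172) showed the same order. Of 20 p53 targets 4 differed, Cdkn1a, Phlda3, Eda2r and Ccng1, each with the more positive change after BLZ945 alone. Cdkn1a lay at 7.41 to 8.72 in recurrent and 9.45 to 11.11 in 5-day IR+BLZ945 MG, a fall of 2.04 ± 0.36 (log2) set against the rise after BLZ945 alone (difference 3.72 ± 0.54, adjusted p = 0.00324). Phlda3 fell by 2.61 ± 0.43 after IR+BLZ945 (difference 6.09 ± 0.66, adjusted p = 9.13e-05), and Eda2r differed by 6.87 ± 1.33, its IR+BLZ945 estimate of -1.76 ± 0.81 not passing alone.

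Among genes of other brain cells the difference passed for 2 of 13 precursor, 3 of 10 astrocyte, 3 of 9 neuronal, 1 of 8 choroid plexus, 1 of 7 myelin and none of 9 endothelial genes, each time with the more positive change after BLZ945 alone. The precursor genes Olig2, Pdgfra, Olig1, Sox10 and Bcan were not among them. Cspg5 differed by 6.36 ± 1.21 (adjusted p = 0.0157), Clu by 6.42 ± 1.63, Slc1a2 by 4.93 ± 1.11, Mtap2, a neuronal microtubule protein, by 5.44 ± 1.26 and Syn1 by 6.07 ± 1.43. The secreted lysophospholipase D Enpp2 differed by 10.83 ± 1.60 (adjusted p = 0.00361), with 2.57 to 9.63 in 5-day and 1.89 to 4.53 in recurrent IR+BLZ945 MG. Igfbp2 lay at 3.87 to 5.91 in recurrent and -1.27 to 5.48 in 5-day IR+BLZ945 MG, so the wide 5-day range held the recurrent one in part. The hypoxia gene Ndrg1 (difference 5.60 ± 1.17) was likewise already at 2.81 to 6.02 in 5-day IR+BLZ945 MG. Among falls, Hpgd lay at 6.06 to 8.05 in recurrent and 6.33 to 6.37 in 5-day IR+BLZ945 MG (difference -4.88 ± 0.91, adjusted p = 0.0143), Rtn4rl1 differed by -4.77 ± 1.09 and Gpr34 by -2.54 ± 0.58. Siglech, a microglial lectin, rose after IR+BLZ945 (1.84 ± 0.38, adjusted p = 0.00277) and differed by -2.66 ± 0.58. The count of 267 became 8 without MG of the BLZ945 recurrent mouse 70696, 59 without 5-day mouse 122, 42 without 124, 472 without 123 and 417 without 65975. Without a recurrent IR+BLZ945 library it became 41 (67169), 48 (68362) or 82 (67543), without a 5-day one 530 (65971) or 548 (67537), and without the doubted libraries 538. With a term for short or long mouse numbers 57 genes passed.

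**Figure D5:**
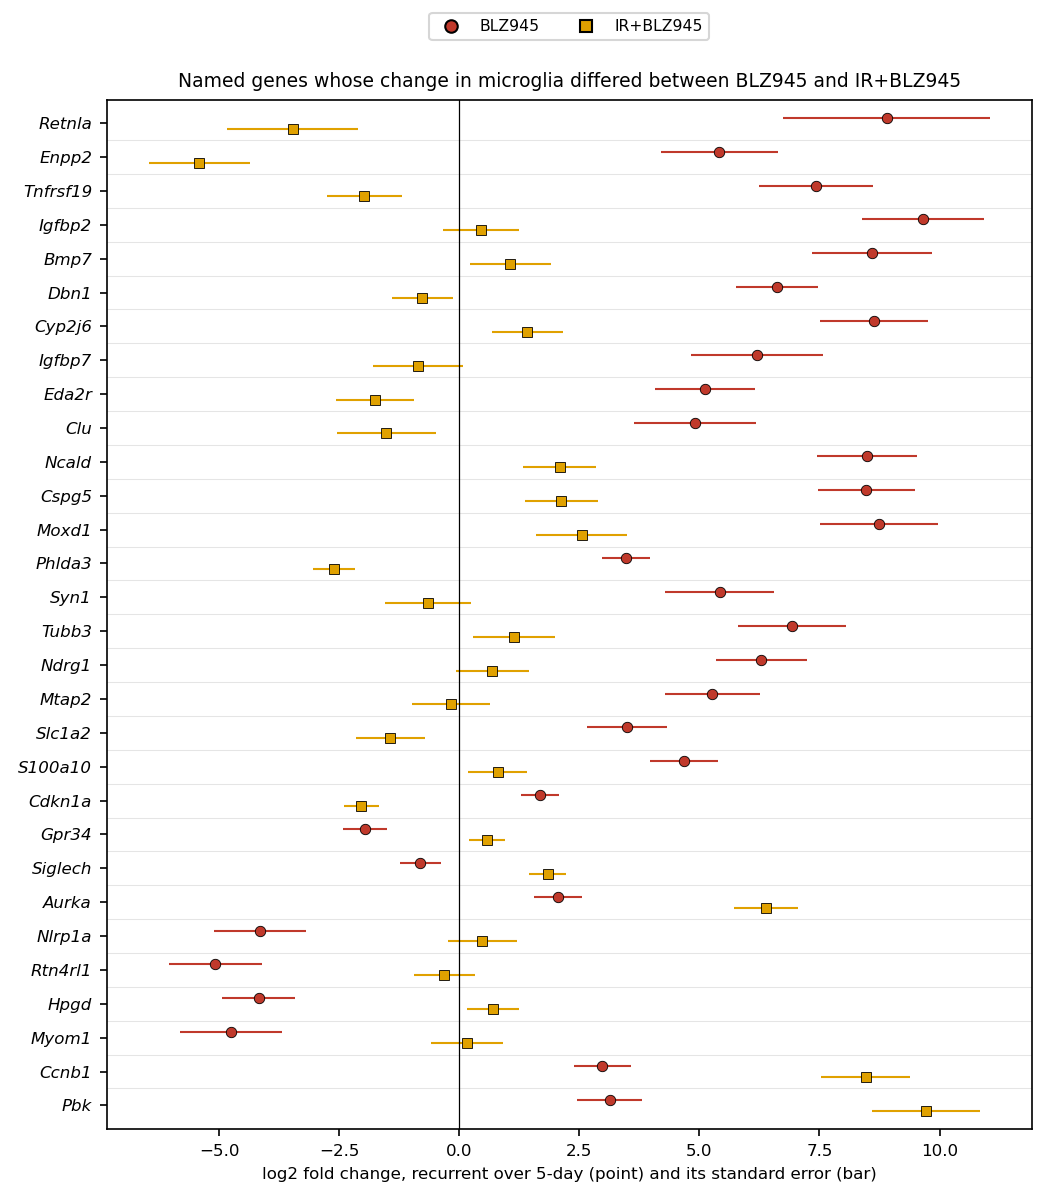
Log2 fold change (recurrent over 5-day, with its standard error) in microglia after BLZ945 (red circles) and after IR+BLZ945 (yellow squares) for the named genes whose difference passed, ordered by the difference. Cdkn1a, Phlda3 and Eda2r lie right of 0 after BLZ945 and left of 0 after IR+BLZ945, whereas Ccnb1, Pbk and Aurka lie right of 0 in both and further right after IR+BLZ945.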

How the data were processed

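RNA of MG and BMDM sorted from the tumours of 23 mice (46 libraries) was made into libraries with a Smart-Seq kit without molecular identifiers, per the labels' protocols. The deposited table holds raw counts of reads per gene for 23329 symbols, of which 1535 had no count. The submitters' processing notes name CASAVA 1.8, STAR 2.5.0e, HTSeq, DESeq2 and mm10. The gene annotation and the strand setting are not given in the sources used here; antisense and overlapping genes therefore cannot be told apart.

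The counts were analysed as deposited with edgeR 4.0.16 (R 4.3.3): TMM scaling, a filter on low counts (filterByExpr by group, minimum count 10, minimum total 15) and the robust quasi-likelihood test, called at a Benjamini-Hochberg adjusted p under 0.05 over all genes tested. All 23 MG libraries were fitted together (14534 genes, 16 residual degrees of freedom), and all 46 for the difference between MG and BMDM (15901 genes). The SE of a log2 fold change is its size divided by the square root of F. Levels are log2 CPM with a prior count of 1. Depth was 9750322 to 12114594 counts in the 6 libraries compared. Folds against a group with no count are bounds that put 3 counts in that group as a whole, and those against 1 to 3 counts are ratios with a 95% counting interval. Intervals and floors cover counting error only.

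Members and lists were chosen with earlier results of these data known. The text names the 12 largest rises and falls without overlap and with 3 log2 CPM or more in either group's mean, up to 5 called members of each list by p, up to 5 genes from each test of a difference, and a fixed set of genes; a few genes these rules pick are not reported here. Genes with a 5-day mean of 5 or more, and list members named as not passing, were chosen after their values were seen. MG and BMDM were paired by mouse number: deviations of the 23 pairs from their group means correlated at -0.094 to 0.442, with 13 over 0.1. In the 5-day BLZ945 mice the values were 0.007 (122), -0.094 (123), -0.037 (124) and 0.211 (65975). Both recurrent BLZ945 mice gave 0.433, which is 1 value, since deviations from a mean of 2 mirror each other. Tested on simulated data of 14534 genes for the MG comparison, 48% of log2 changes of 2 and 78% of changes of 3 were called, with 5.26% of calls false. The changes were put only in genes with a mean count well above the floor. No library was made to stand apart, and no measure other than the stage differed. These rates therefore do not cover rises from near 0 counts or the uneven libraries described above. Alternatives were DESeq2 1.42.0, other scaling, no filter, extra terms, subsets of libraries and leaving out each library.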

Additional observations from a re-analysis of the deposited data

Results flagged for a closer look

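In 27 of 182 groups of 4 5-day levels (log2 CPM) 1 mouse lay far from the others, where chance flags about 1 in 20 groups. Mouse 65975 was that mouse in 14 of them. It stood low for Rtn4rl1 (5.54), Myom1 (1.31), Nlrp1a (1.31), N4bp2l1 (4.35), Slco2b1 (9.23), Slc40a1 (6.87) and the mean of the interferon-induced list (4.00). It stood high for Gpr34 (10.58), Emilin2 (6.96), Bnip3 (7.74), Ank (8.40), S100b (2.17), Timp1 (-1.45) and Cldn11 (-1.45).

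Mouse 123 was that mouse in 12 groups, most of them given here. It stood high for Pdgfra (-0.73), Eda2r (-0.99), Il34 (-0.50), Ier3 (9.12), Cyp4f18 (6.05) and the mean of the IGF, IL-4 and PI3K list (3.30). It stood low for Tmem119 (8.91). Cyp2j6, Bmp7, Lum and Tnfrsf19 each lay at -2.38 in it, the level of 1 count, with no count in the other 5-day mice. Mouse 122 stood low for the mean of the astrocyte list (0.50).

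The change from 5 days to recurrence after BLZ945 differed between MG and BMDM for 29 named genes by the test of the difference itself. MG minus BMDM differences (log2) were negative for Csf1r (-2.60), Stab1 (-3.53), Tlr7 (-3.30), Mertk (-3.38), Sirpa (-2.15), Abca1 (-3.26), Cx3cr1 (-2.76), Mef2c (-2.69), P2ry12 (-2.99), Apoe (-3.62), Slco2b1 (-3.63), Slc16a6 (-2.94), Cspg4 (-6.93), Slc7a4 (-8.72), Rapgef5 (-9.06) and 1110021L09Rik (-9.16). They were positive for S100a10 (6.17), Plac8 (5.96), Runx3 (3.26), Pfkp (4.47), Lsp1 (3.58), H2-DMb2 (3.50), Ccl17 (8.47), Clu (6.31), Cyp2j6 (7.54), Sqle (3.09), Tuba1a (2.94), Ifitm3 (2.83) and Fxyd5 (2.62).

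The MG change differed between BLZ945 and IR+BLZ945 for 30 named genes. BLZ945 minus IR+BLZ945 differences were positive for Phlda3 (6.09), Eda2r (6.87), Cdkn1a (3.72), Ndrg1 (5.60), S100a10 (3.88), Enpp2 (10.83), Igfbp2 (9.20), Igfbp7 (7.05), Bmp7 (7.54), Moxd1 (6.19), Ncald (6.39), Cyp2j6 (7.23), Tnfrsf19 (9.41), Dbn1 (7.39), Retnla (12.37), Cspg5 (6.36), Clu (6.42), Slc1a2 (4.93), Tubb3 (5.79), Mtap2 (5.44) and Syn1 (6.07). They were negative for Ccnb1 (-5.48), Pbk (-6.59), Aurka (-4.34), Hpgd (-4.88), Rtn4rl1 (-4.77), Myom1 (-4.92), Nlrp1a (-4.63), Gpr34 (-2.54) and Siglech (-2.66). For genes with no count or 1 to 3 counts in a 5-day group, a fitted difference depends on the prior count and is no bound.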

How the results depend on the processing

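The 1197 calls of the MG comparison became 2032 with DESeq2, 2383 without the doubted libraries, 673 with a term for short or long mouse numbers and 219 with one for Malat1 minus Lars2. In 2 settings chosen after seeing the data they became 2 with a term for the precursor list (Hpgd and Prps1) and 0 with long-numbered mice alone. Leaving out 1 library gave 639 to 1649. The 283 genes whose change differed between MG and BMDM became 638 with DESeq2, 540 without the doubted libraries, 62 to 544 without 1 library, and 369 with the mouse as a replicate block. The 267 that differed between BLZ945 and IR+BLZ945 became 57 with the term for mouse numbers, 904 with DESeq2, 538 without the doubted libraries, 176 with a sex-linked profile term, 161 with the Malat1 minus Lars2 term, 30 with the precursor list term and 8 to 548 without 1 library. With the Malat1 minus Lars2 term the precursor list had 8 rises against 11 and the microglia identity list 1 fall against 5, and no CSF1 axis, phagocytosis or lipid gene fell. No paired analysis was possible within MG, because the groups compared there are different mice. Of 2487 values of named genes under an alternative, 596 kept their direction but no longer passed and 11 reversed. Reversed were Lars2 with the Malat1 minus Lars2 term (-0.92) and, with the precursor list term, Lrrn1 (-0.85), Igfbp5 (-3.11), Ly6c2 (-2.11), Sox10 (-0.94), Cldn11 (-0.47), Slc1a2 (-3.28), Clu (-6.09), Syn1 (-2.17), Enpp2 (-4.41) and Foxj1 (-3.34). These causes were not tested. Of 115 named genes called, 38 passed without each library in turn. With 2 recurrent mice, a change that is uneven between them rests on 1 library.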
